A study of Rattus norvegicus with 6 samples.

Results

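Genes of the insulin-like growth factor (IGF) axis were followed in rat renal cortex: the growth factor gene Igf1, the receptor genes Igf1r and Igf2r, and the binding protein genes Igfbp1 to Igfbp7. They were chosen by name, and array probes were assigned to them through the RefSeq transcript named in the scanner files. All 10 genes were found, among 45788 genes or sequences on the array, with 18 probes in all. Every one of the 18 probes was well above background on all 6 arrays and entered the test, and none was saturated, so all 10 were among the 31582 genes or sequences tested.

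IGF-1 is a secreted peptide that acts through IGF1R, a receptor tyrosine kinase coupled to the PI3K-AKT and RAS-MAPK pathways. IGF2R binds IGF-2 and mannose 6-phosphate-tagged enzymes and carries them to lysosomes, without kinase activity of its own. The classical IGF-binding proteins hold IGFs in the circulation and in the tissue and can limit or prolong their action, while IGFBP7 binds IGFs weakly. In the kidney, the axis is known for its part in growth, filtration and tubular transport, and liver Igf1 is the main source of circulating IGF-1, under growth hormone control.

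The animals were male Sprague-Dawley (Crl:CD(SD)) rats, 5 weeks old when bought, and total RNA of their renal cortex was measured. The control group of 3 rats was given corn oil for 4 weeks, and over the same 4 weeks the treated group of 3 rats was given 1000 mg/kg/day of the brominated diol 2,2-bis(bromomethyl)-1,3-propanediol (BBMP). The design text describes the samples of a group as biological replicates, and each was hybridised to its own one-colour Agilent array. The comparison asks how the compound changed gene expression in this tissue.

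The arrays of a group lay close together, with a median correlation across genes of 0.993 within and 0.989 between groups. The share of probes well above background was 67.2% to 68.6% on control and 70.5% to 72.7% on BBMP arrays. The 75th percentile of the processed signal was 942.7 to 949.7 on control and 1244.5 to 1259.5 on BBMP arrays, with 0 and 3 to 5 saturated probes per array. All 11 proximal tubule markers tested, such as Slc34a1 and Lrp2, were above background on all 6 arrays, and their summed level overlapped between the groups (2262 to 2486 in control and 2305 to 2394 in BBMP samples). Slide 1, read in scan 1, held the 3 control arrays, and slide 2, read in scan 2, held the 3 BBMP arrays. The effect of BBMP and that of slide or scan therefore cannot be told apart in any value below. The number of arrays limits the precision.

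Levels are given as a signal ratio, the processed signal divided by the 75th percentile of the same array, or as its log2, the normalised log2 signal. A gene was represented by its brightest probe and is called changed where the limma p-value, adjusted over all genes tested by the Benjamini-Hochberg method, was under 0.05. Signal ratios are compared only within a probe, since probes differ in brightness for reasons other than RNA level.

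Among the members, 3 binding protein genes were called by their brightest probe, each by less than 1.5-fold: Igfbp1 higher, Igfbp4 lower, and Igfbp3 higher on that probe but lower on another called probe. That is 3 of 10 members, 2 higher and 1 lower, where 17.9% of all genes tested were called, 10.2% higher and 7.68% lower. The growth factor and receptor genes did not pass, and neither did Igfbp2, Igfbp5, Igfbp6 and Igfbp7. The median log2 difference, BBMP minus control, was 0.10 over the members and 0.05 over all genes tested, and the median size of the difference was 0.25 against 0.21. The groups did not overlap in 5 members (Igf2r, Igfbp1, Igfbp2, Igfbp3 and Igfbp4), against 43.6% of all genes, and the same 5 had an unadjusted p under 0.05, against 36.6%. In bulk tissue, fewer cells of a type and less RNA per cell cannot be told apart.

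**Figure D1:**
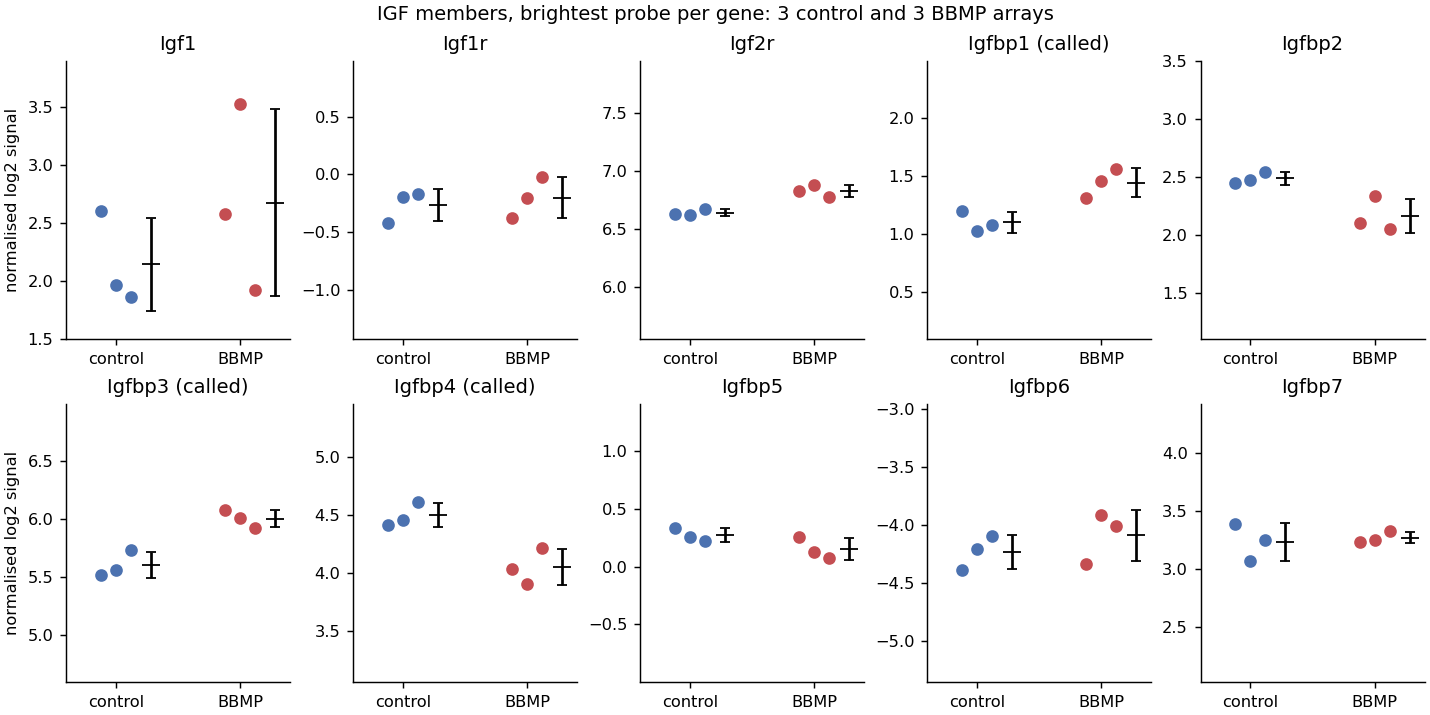
Normalised log2 signal of the brightest probe of each of the 10 IGF genes on the 3 control (blue) and 3 BBMP (red) arrays, with the group mean and SD in black; every panel spans the same number of log2 units. The groups are apart in Igf2r, Igfbp1, Igfbp2, Igfbp3 and Igfbp4, and the widest spread is in the BBMP samples of Igf1 (SD 0.81).

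Igf1 encodes the growth factor itself and was the most variable member. Its brightest probe read a signal ratio of 6.07, 3.91 and 3.63 in control samples 1 to 3 and 5.94, 11.5 and 3.78 in BBMP samples 1 to 3. BBMP sample 2 stood above all other samples, BBMP sample 1 lay beside control sample 1, and BBMP sample 3 lay beside the lower control samples. The normalised log2 signal was 2.14 ± 0.40 in control and 2.67 ± 0.81 in BBMP samples (mean ± SD, n = 3 each). The log2 difference of 0.53 ± 0.43 (SE) did not pass (limma adjusted p = 0.422), with a 95% interval from -0.54 to 1.60. Without BBMP sample 2 it was 0.10, and without BBMP sample 3 it was 0.91, so the size of the difference rested on which sample was counted.

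The array carries 3 Igf1 probes, matched to the transcripts NM_178866 and NM_001082479, and all 3 gave the same picture. Their log2 differences were 0.53, 0.56 and 0.54. The probe A_64_P052740 read 2.63, 1.79 and 1.62 in control and 2.75, 5.22 and 1.71 in BBMP samples, and the dimmer A_44_P126021 read 0.604, 0.443 and 0.413 in control and 0.690, 1.13 and 0.434 in BBMP samples. On every Igf1 probe, BBMP sample 2 was the highest of all 6 samples and control sample 3 the lowest.

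Igf1r encodes the signalling receptor. It read 0.748, 0.874 and 0.889 in control and 0.770, 0.868 and 0.983 in BBMP samples, with the groups overlapping. The log2 difference was 0.06 ± 0.12 (SE; limma adjusted p = 0.748), with a 95% interval from -0.23 to 0.35. The sign was negative in 4 of 20 other settings, so no direction is given.

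Igf2r, the IGF-2 and mannose 6-phosphate receptor gene, was the steadiest member within groups. It read 98.7, 98.2 and 102 in control and 113, 118 and 109 in BBMP samples, every BBMP sample above every control sample. The difference of 0.19 ± 0.06 on the log2 scale (SE) missed the threshold (limma adjusted p = 0.0789), and its 95% interval ran from 0.04 to 0.33. It passed with trend and robust moderation (adjusted p = 0.0245) and without empirical Bayes moderation (0.0479), while its adjusted p was 0.256 with median scaling.

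Igfbp1 encodes a binding protein whose gene is known to be repressed by insulin and induced by fasting in liver. It read 2.29, 2.04 and 2.12 in control and 2.49, 2.75 and 2.95 in BBMP samples, with no overlap. The normalised log2 signal was 1.102 ± 0.09 in control and 1.45 ± 0.12 in BBMP samples (mean ± SD, n = 3 each), a rise of 1.27-fold at the edge of the threshold (limma adjusted p = 0.0495). The array has 1 probe for it. The call held in 8 of 14 settings other than leaving out an array. It was lost with median scaling (log2 difference 0.27, adjusted p = 0.0930), where the shift of all genes is toward lower values. At an unchanged difference of 0.34 it was also lost with no filter on dim probes (adjusted p = 0.0649), the mean of all probes (0.052) and replicate number as a block (0.130). Without empirical Bayes moderation the call was lost too. It was lost whenever any of the 6 arrays was left out (0.29 to 0.41, adjusted p from 0.0667 to 0.126). Those fits also called fewer of all genes, at most 2433 higher and 1567 lower against 3232 and 2427.

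Igfbp3 encodes the main carrier of IGFs in serum. Its brightest probe, A_42_P627998, read 45.7, 47.3 and 53.0 in control and 67.5, 64.6 and 60.7 in BBMP samples, with no overlap. The normalised log2 signal rose from 5.60 ± 0.11 to 6.004 ± 0.08 (SD, n = 3 each), which is 1.32-fold (limma adjusted p = 0.0288). The call held without control replicate 3 (0.47, adjusted p = 0.0358) and was lost without any other single array (0.36 to 0.44, adjusted p from 0.0612 to 0.0878). Calls over all genes fell in each of these fits too.

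The 3 Igfbp3 probes, all matched to the same transcript (NM_012588), went in opposite directions, and all 3 passed the test over all probes. The probe A_44_P180127 read 23.8, 26.0 and 30.2 in control and 40.9, 38.6 and 35.6 in BBMP samples, a log2 difference of 0.53 ± 0.11 (SE; limma p adjusted over all probes = 0.0283). The probe A_64_P046754 read 31.5, 30.3 and 34.7 in control and 26.9, 23.5 and 21.8 in BBMP samples, a log2 difference of -0.42 ± 0.10 (SE; adjusted p = 0.0422). On each of the 3 probes the control and BBMP samples did not overlap. With the mean of the 3 probes as the gene's value, the difference was 0.17 and Igfbp3 was not called (limma adjusted p = 0.245). The direction of Igfbp3 therefore depends on the probe, and where each probe lies in the transcript was not analysed here.

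**Figure D2:**
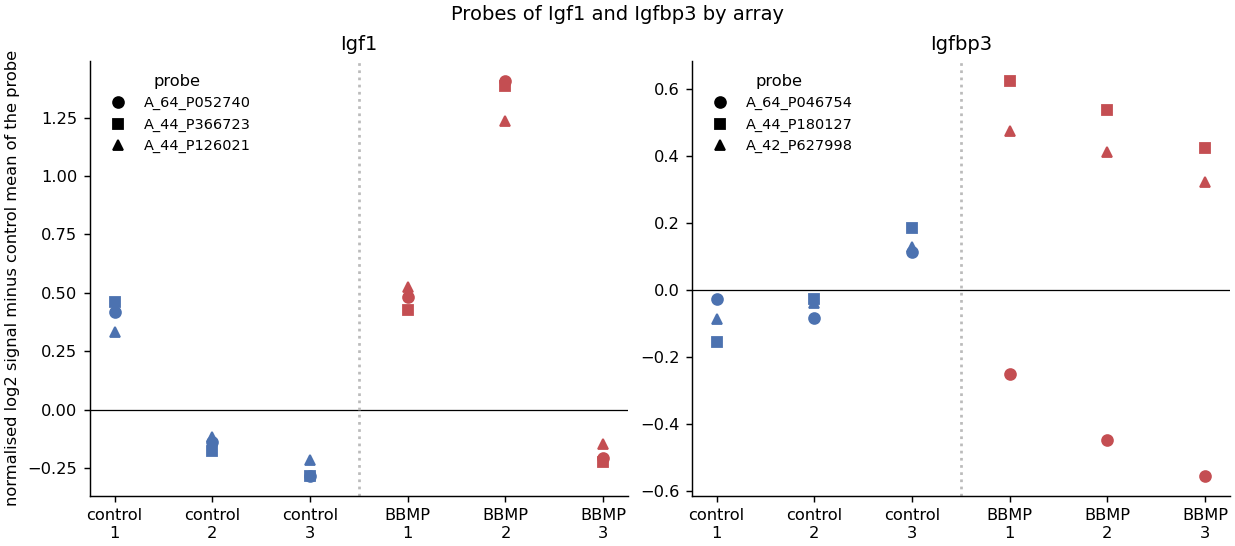
Normalised log2 signal of each probe of Igf1 (left) and Igfbp3 (right) on each array, minus that probe's mean over the 3 control samples (blue, control; red, BBMP; marker shape, probe). The Igf1 probes move together from array to array, with BBMP sample 2 highest, while in Igfbp3 the probe A_64_P046754 lies below 0 and the other probes above 0 in every BBMP sample.

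Igfbp4 encodes a binding protein best known for holding back IGF action until it is cleaved by the protease PAPP-A. Its brightest probe, A_43_P16767, read 21.4, 22.0 and 24.5 in control and 16.4, 15.0 and 18.6 in BBMP samples, every BBMP sample below every control sample. The normalised log2 signal fell from 4.50 ± 0.10 to 4.05 ± 0.15 (SD, n = 3 each), 1.36-fold lower (limma adjusted p = 0.0371). Its other probe is much dimmer and read 0.259, 0.292 and 0.277 in control and 0.257, 0.236 and 0.255 in BBMP samples. That probe also lay lower in all BBMP samples, but its difference of -0.15 ± 0.07 (SE) did not pass over all probes (adjusted p = 0.210). The mean of both probes gave -0.30 (adjusted p = 0.0582), and leaving out any of the 6 arrays ended the call (-0.53 to -0.37, adjusted p from 0.0515 to 0.104). With an array left out, calls over all genes fell too.

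Igfbp2 encodes a binding protein that is prominent in fetal life. Its brightest probe read 5.46, 5.56 and 5.86 in control and 4.32, 5.06 and 4.16 in BBMP samples, without overlap, at a log2 difference of -0.32 ± 0.09 (SE; limma adjusted p = 0.0608). The other probes did not show that difference: A_64_P032415 gave -0.10 ± 0.08 and A_44_P547185 gave 0.02 ± 0.07 (SE), with overlapping groups. The brightest probe passed with median scaling (-0.40, adjusted p = 0.0419) and with trend and robust moderation (adjusted p = 0.0337).

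Igfbp5, a highly conserved member of the family, lay slightly lower on both probes. The brighter one read 1.26, 1.19 and 1.16 in control and 1.19, 1.09 and 1.05 in BBMP samples, and the groups overlapped. The log2 differences were -0.12 ± 0.07 (SE; limma adjusted p = 0.303) and, for the other probe, -0.15 ± 0.06 (SE; adjusted p over all probes = 0.147), where the groups did not overlap.

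Igfbp6, which prefers IGF-2, was the dimmest member and read between 0.0476 and 0.0583 in control and between 0.0494 and 0.0660 in BBMP samples. Its log2 difference of 0.14 ± 0.14 (SE; limma adjusted p = 0.497) was close to the median of 0.16 over all genes in its brightness range, of 10 ranges of equal gene number. Igfbp7, the low-affinity member made by blood vessels, read between 8.38 and 10.5 in control and between 9.42 and 10.04 in BBMP samples, at a difference of 0.03 ± 0.10 (SE; adjusted p = 0.825). Neither gene has a direction here: Igfbp6 turned negative with cyclic loess and Igfbp7 with median scaling, and both with the normexp background correction.

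Over all 18 probes, 5 were called, 3 higher and 2 lower, where 17.8% of all probes were called, 10.3% higher and 7.46% lower. An unadjusted p under 0.05 was reached by 7, against 36.5%, and 9 did not overlap between the groups, where 43.4% of all probes did not. Several probes were available for 5 genes. They shared a sign in Igf1, Igfbp4 and Igfbp5 and differed in sign in Igfbp2 and Igfbp3.

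**Figure D3:**
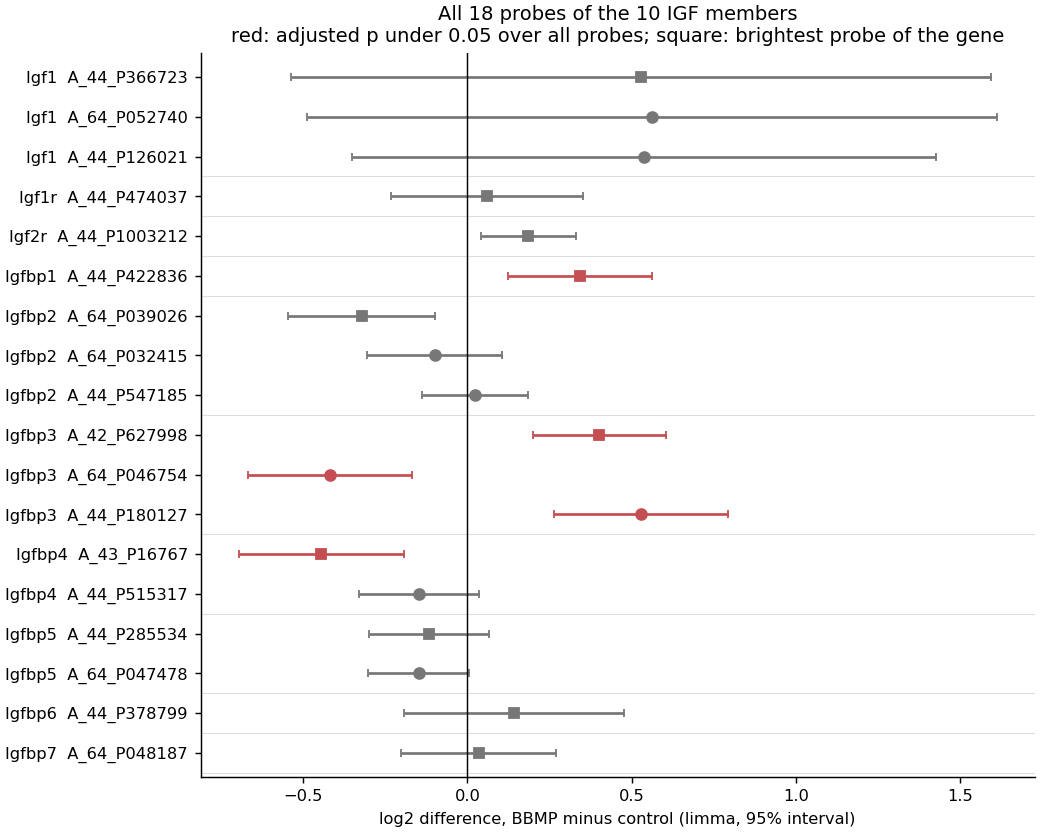
Log2 difference between BBMP and control samples with its 95% interval from limma for each of the 18 probes of the 10 IGF genes. Red marks the 5 probes with a p adjusted over all probes under 0.05, and the 3 Igfbp3 probes, all red, lie on both sides of 0.

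The 250 bases before the annotated start of the 3 called genes are shown because these are the members called, and Igfbp1 and Igfbp3 are adjacent protein-coding genes. They are RefSeq sequence of the GRCr8 assembly, read 5′ to 3′ on the gene's strand: Igfbp1 at chr14:86261027-86261276 on the plus strand, Igfbp3 at chr14:86277945-86278194 on the minus strand, and Igfbp4 at chr10:84491221-84491470 on the plus strand. Capitals mark matches, on either strand, to 6 motifs named after them.
Igfbp1: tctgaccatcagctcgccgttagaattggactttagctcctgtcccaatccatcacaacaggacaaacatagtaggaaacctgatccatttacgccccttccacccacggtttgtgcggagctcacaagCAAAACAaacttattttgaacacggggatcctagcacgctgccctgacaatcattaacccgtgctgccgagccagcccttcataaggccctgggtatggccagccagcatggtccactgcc
Igfbp3: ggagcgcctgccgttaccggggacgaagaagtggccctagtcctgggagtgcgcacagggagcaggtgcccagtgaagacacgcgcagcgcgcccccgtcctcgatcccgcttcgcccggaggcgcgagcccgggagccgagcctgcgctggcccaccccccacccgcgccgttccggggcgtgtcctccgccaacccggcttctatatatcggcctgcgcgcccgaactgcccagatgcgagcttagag
Igfbp4: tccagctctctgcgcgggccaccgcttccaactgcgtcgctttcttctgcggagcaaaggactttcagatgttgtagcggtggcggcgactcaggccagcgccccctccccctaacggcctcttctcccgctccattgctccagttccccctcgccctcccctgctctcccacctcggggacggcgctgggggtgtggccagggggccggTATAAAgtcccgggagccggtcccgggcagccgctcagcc

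The motifs searched were the TATA box TATAAA, the GC box GGGCGG, the CAAAACA of the insulin response element, the STAT site TTCNNNGAA, the core of the antioxidant response element TGACNNNGC and the core of the hypoxia response element ACGTG. The window of Igfbp1 holds CAAAACA, whose first base lies at position -121 from the start, a match found in 5.46% of all 33469 promoters, and Igf1 holds it at -67. The window of Igfbp4 holds TATAAA at -40, a match found in 12.9% of promoters. The window of Igfbp3 holds none of the 6, and no member holds the STAT site or the antioxidant response element core, found in 7.67% and 10.1% of promoters. The GC content was 52.8% for Igfbp1, 71.6% for Igfbp3 and 68.8% for Igfbp4, against a median of 51.2% over all promoters, so the neighbours Igfbp1 and Igfbp3 differ in composition. Igfbp2 and Igfbp5 are also adjacent, and neither was called. A match is a description of these letters only.

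Of 102 other genes of the IGF and insulin pathways and their surroundings, 85 were tested, of which 7 rose and 11 fell, with a median log2 difference of -0.01 against 0.05 for all genes. The share called was 18 of 85, where the background is 17.9%. With median scaling, 5 rose and 14 fell. Without BBMP replicate 2 none was called by limma, where 3 of all 31582 genes were. In that fit 27 were at an unadjusted p under 0.05, as were 9557 of all genes. Without each of the other arrays between 2 and 12 pathway genes were called, and calls over all genes fell too. For each list below, the shares of all genes tested were 10.2% called higher, 7.68% called lower and 36.6% at an unadjusted p under 0.05.

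Among 9 other ligands, receptors and carriers tested, only Igfals was called. Igfals encodes the acid-labile subunit that holds IGF and IGFBP3 in a large serum complex. Its normalised log2 signal was -0.56, -0.45 and -0.55 in control and -0.09, -0.06 and 0.00 in BBMP samples, a rise of 1.38-fold (limma adjusted p = 0.0138) with 1 probe. Insr, the insulin receptor gene, was at -2.36 ± 0.11 in control and -2.37 ± 0.10 in BBMP samples (mean ± SD, n = 3 each; adjusted p = 0.939), and Igf2 had a difference of 0.26 ± 0.10 (SE; adjusted p = 0.114). Of 4 proteases and inhibitors tested none was called, with 2 at an unadjusted p under 0.05, against 36.6% of all genes.

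In the growth hormone axis, 1 of 10 tested genes rose and 2 fell. Stat5a, a transcription factor that carries the growth hormone signal, fell 1.67-fold, from 0.79, 0.73 and 0.51 in control to 0.00, 0.01 and -0.19 in BBMP samples on the log2 scale (limma adjusted p = 0.0144). Its close relative Stat5b rose 1.28-fold, from -2.67 ± 0.05 to -2.31 ± 0.04 (SD, n = 3 each; adjusted p = 0.0196). Jak2, the kinase bound to the growth hormone receptor, fell 1.31-fold (adjusted p = 0.0180), and its other probe was also called lower. The receptor gene Ghr itself was at -0.16 ± 0.07 (SE; adjusted p = 0.148), with all 4 of its probes negative. Cish, a STAT5-induced inhibitor chosen after its values were seen, was at 1.05, 0.94 and 0.77 in control and -1.15, -1.15 and 0.78 in BBMP samples. Cish was low in BBMP samples 1 and 2 and at the control level in sample 3, and it did not pass (-1.43 ± 0.54, SE; adjusted p = 0.117).

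Among 22 receptor adaptors and PI3K-AKT genes, 1 rose and 6 fell, with a median log2 difference of -0.17. Over all genes tested, 10.2% rose and 7.68% fell, with a median of 0.05. The largest called decreases were in Pik3r1, the regulatory subunit of PI3-kinase, 1.63-fold lower (limma adjusted p = 0.0325), Gab1, a docking protein, 1.43-fold lower (adjusted p = 0.0356), and Pdpk1, the kinase that activates AKT, 1.41-fold lower (adjusted p = 0.0147). Neither Pik3r1 nor Gab1 was called with the mean of its probes, at -0.39 (adjusted p = 0.0641) and -0.10 (adjusted p = 0.421), and the other probe of Gab1 was called in the opposite direction. The insulin receptor substrate genes did not pass: Irs1 was at -0.28 ± 0.13 and Irs2 at -0.70 ± 0.24 on the log2 scale (SE; adjusted p = 0.178 and 0.0983), each with a probe of the opposite sign. Irs1 passed with normexp (adjusted p = 0.0242).

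In the FOXO and mTORC1 branch, 2 of 17 rose and 1 fell. Foxo1, the transcription factor that AKT excludes from the nucleus, rose 1.39-fold, from 0.01 ± 0.04 to 0.48 ± 0.07 (SD, n = 3 each; limma adjusted p = 0.0141). Tsc2, a brake on mTORC1, rose 1.33-fold (adjusted p = 0.0180), and Eif4e, the cap-binding protein gene, fell 1.28-fold (adjusted p = 0.0173), both with all other probes of the same sign. Of the 13 listed FOXO target genes tested none was called by limma, with 4 at an unadjusted p under 0.05, against 36.6% of all genes. That list holds no IGF member, so Igfbp1, called higher, is not counted in it.

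In the RAS-MAPK branch, 2 of 13 rose and 2 fell. Spry2, an inhibitor of receptor tyrosine kinase signalling, fell 1.41-fold (limma adjusted p = 0.0243), and the kinase gene Araf rose 1.26-fold (adjusted p = 0.0420), although 1 of 5 further Araf probes was of opposite sign. Araf was not called with the mean of its probes (0.21, adjusted p = 0.0764), with median scaling (0.26, adjusted p = 0.0807) or with normexp (0.22, adjusted p = 0.0919).

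**Figure D4:**
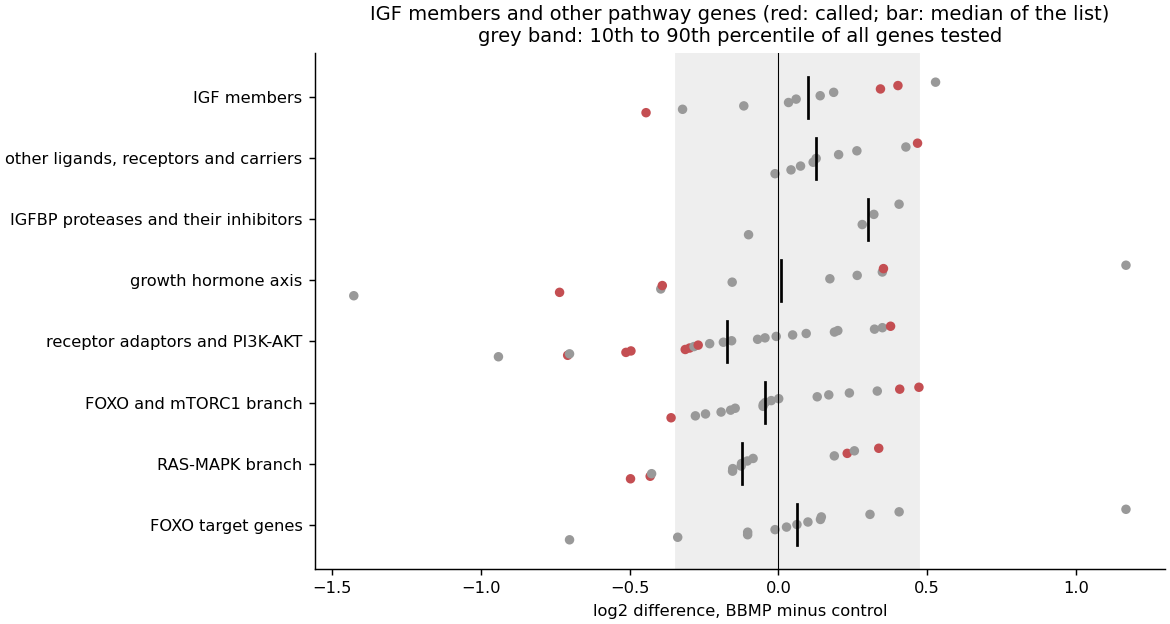
Log2 difference between BBMP and control samples for each tested gene of the IGF members and 7 other pathway lists; red points are called, black bars are list medians and the grey band spans the 10th to 90th percentile of all genes (-0.35 to 0.47). Receptor adaptors and PI3K-AKT genes have the lowest median, at -0.17.

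Markers of the cells that a cortex sample can hold were measured beside these genes, as the sum of signal ratios over each list. Over all genes tested, 10.2% were called higher and 7.68% lower. Endothelial markers, 11 tested, summed to 83.0 to 98.7 in control and 83.5 to 96.6 in BBMP samples, and 1 of them (Cdh5) was called higher. Plvap and Kdr, the brightest of the list, made up most of that sum, at log2 differences of 0.04 and -0.19. Of the 11, 8 had a positive log2 difference, with a median of 0.22 against 0.05 for all genes. An unadjusted p under 0.05 was reached by 4, against 36.6% of all genes. Fibroblast, pericyte and smooth muscle markers summed to 29.0 to 32.7 and 30.3 to 37.7, and none of 11 was called, nor was any at an unadjusted p under 0.05. The summed collecting duct markers were lower in all BBMP samples, at 317 to 364 in control and 298 to 303 in BBMP samples. Of the 11, 2 were called lower (Hsd11b2, and Aqp4 with another probe of opposite sign), and 5 had a positive log2 difference. The summed adrenal markers were higher in all BBMP samples, at 2.97 to 3.30 and 4.05 to 4.36, with 2 of 6 called higher (Cyp21a1 and Th, the latter with another probe of opposite sign). Cyp11a1 and Cyp11b2 overlapped between the groups, at log2 differences of 0.51 and -0.29, and no array showed Star or Cyp11b1 well above background. Markers of medulla, papilla and urothelium summed to 1.44 to 1.52 and 1.76 to 2.04, with 2 of 8 called higher. Liver markers overlapped (3.27 to 9.04 and 3.86 to 6.69), with none of 8 called or at an unadjusted p under 0.05. The part of these lists in the IGF results was not tested.

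**Figure D5:**
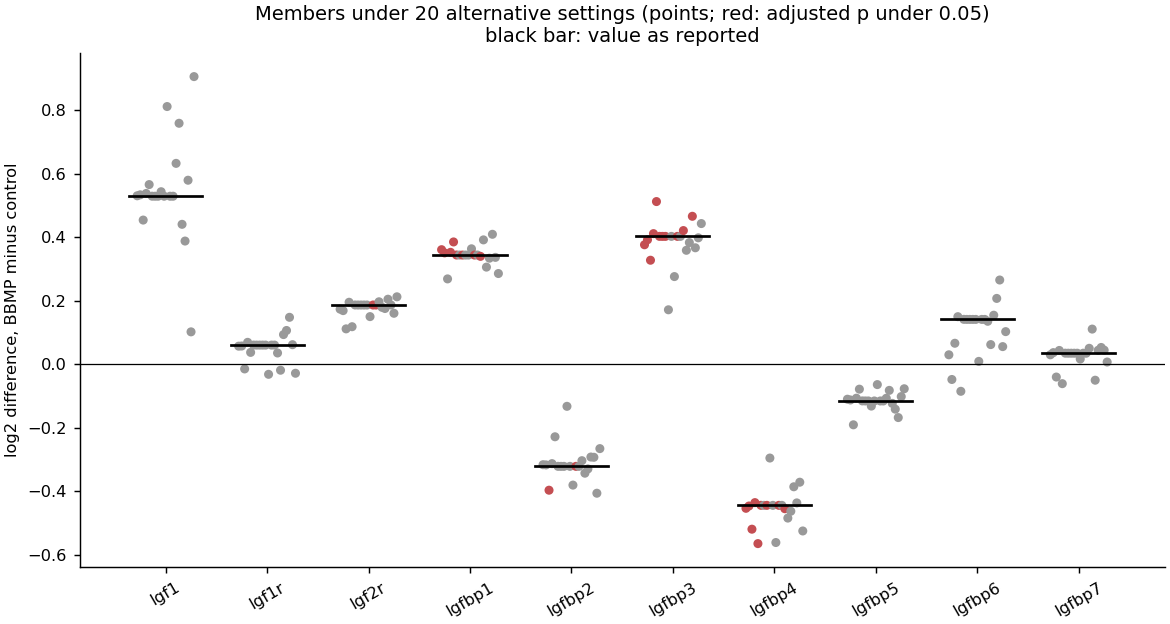
Log2 difference between BBMP and control samples of each IGF gene under 20 alternative settings (points, red where the adjusted p was under 0.05), with the reported value as a black bar. Igfbp1 and Igfbp3 are above 0 and Igfbp4 below 0 in all 20, while Igf1r, Igfbp6 and Igfbp7 have points on both sides of 0. Each setting but the mean of all probes uses the brightest probe, so the Igfbp3 probe of opposite direction is not shown by itself.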

How the data were processed

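Agilent Feature Extraction 10.7.1.1 read the one-colour (Cy3) arrays, per the file headers. The scanner files as deposited give each spot's intensity, linear (a background-subtracted, detrended processed signal, and the median signal with its local background) and flags scored 0 or 1 for spots well above background, saturated or outlying. The authors' deposited table holds 1 ratio per probe and sample, whose making it does not state. Each of its columns equals, up to a constant, the processed signal of another sample of the same group, so replicate numbers are uncertain and groups are not. Column medians lay between 0.1064 and 0.1131, on a linear scale with no centring per gene.

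Of 61657 probes not marked as controls, 84 ERCC spike-in probes and 10 with an outlier flag were left out. Processed signals were divided by their array's 75th percentile, taken to log2 and compared by limma 3.58.1 under R 4.3.3 (lmFit, then eBayes; two-sided; treatment as the one factor). Testing required a probe to be well above background in all 3 samples of either group. The gene fit used the brightest probe, and the probe fit all 42657 probes. Names came from RefSeq accessions in a GRCr8 table (27452 probes named). The array design is based on rn4, and only promoter sequences carry coordinates, in GRCr8. The members, lists and tests were chosen with earlier results of these data known. All members were named, with called pathway genes (all of the ligand, receptor and carrier list, up to 3 with the largest change of each other list) and Ghr, Insr, Irs1 and Irs2. A gene that this rule would name is not reported here. The fit was tested on simulated data. Alternatives covered background correction, scaling, the authors' table, filters, probe choice, blocks, moderation, array weights and leaving out each array. For normexp (offset 50) the median spot signal was used, the files used here having no mean signal column. Plots were made in Python 3.11.15 with matplotlib 3.10.9.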

Additional observations from a re-analysis of the deposited data

How the results depend on the processing

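The counts of called members (3 genes, 5 probes) and of called pathway genes (18) stayed within 1.5 times under quantile normalization, cyclic loess, median scaling, the percentile over detected probes, normexp, the authors' ratio table, the stricter background filter and array weights. Other settings moved at least one of the counts. With no filter on dim probes, 1 member gene, 2 member probes and 10 pathway genes were called, and with no empirical Bayes moderation 1 member gene and 1 member probe. Over all genes, 3232 were called higher and 2427 lower in the fit reported here. Without the filter 2102 and 2347 of 45788 were, and without the moderation 2214 and 2020 of 31582. The mean of all probes called 0 member genes (3 at an unadjusted p under 0.05), and trend and robust moderation called 5. Over all genes, the mean of all probes called 3148 higher and 2047 lower, and trend and robust moderation 3640 and 3048. Slide row as a block does not test the calls. Control arrays 1 and 2 lay in slide row 2, and control array 3 and all BBMP arrays in row 1. With that block the difference rested on control array 3 alone against the BBMP arrays, so only its log2 differences are given. Deviations of same-numbered samples of the 2 groups correlated at -0.116, -0.082 and -0.068, and those of differently numbered samples at -0.05 to 0.123. With replicate numbers uncertain and 3 arrays per group, these values cannot settle whether samples were paired. Replicate number as a block called 0 of all genes (9943 at an unadjusted p under 0.05), 0 members, 0 member probes and 0 pathway genes. Leaving out 1 array left 0 to 1 member genes, 0 to 2 member probes and 0 to 12 pathway genes called, with 4 to 5 members at an unadjusted p under 0.05. Over all 31582 genes, the same fits called 3 to 2433 higher and 0 to 1567 lower. Without BBMP replicate 2, 3 of all genes were called.

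In all of the 20 alternatives but the mean of all probes, the gene fit used the brightest probe. Igfbp3 and Gab1 each had another probe called in the opposite direction. In every called gene named the groups did not overlap, so leaving out 1 array could not change its sign and does not test direction. No called gene among the 27 named changed sign in the 20 alternatives. Uncalled genes did: Igf1r with median scaling (-0.015), slide row as a block (-0.032), without control replicate 1 (-0.019) and without BBMP replicate 3 (-0.029; -0.029 to 0.147 over the arrays left out in turn), Igfbp6 with cyclic loess (-0.049) and normexp (-0.086), Igfbp7 with median scaling (-0.041), normexp (-0.062) and without control replicate 2 (-0.051; -0.051 to 0.110 over the arrays left out), and Insr without control replicate 3 (0.053), BBMP replicate 1 (0.014) and BBMP replicate 2 (0.020). Normexp shifted the median of all genes by -0.111, and relative to that median Igfbp6 was at -0.024. The cause of these changes was not tested. Among all genes called, 57.1% were higher here and 35.9% with median scaling.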
